A study of Mus musculus with 8 samples.

Results

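The genes described here are 10 enzymes of tryptophan breakdown and NAD synthesis, taken from the 19937 genes that the arrays measured. They were chosen by name, each with the 1 probe set annotated to it alone: Tdo2, Afmid, Kmo, Kynu, Haao, Acmsd, Qprt, Nadsyn1, Nampt and Nnmt. Total RNA of 4 control livers and 4 liver tumours was hybridised to Affymetrix Mouse Gene 1.0 ST arrays, with 1 array per sample. According to the labels, tumour formation was driven by human c-MYC, expressed in the liver through a CEBPB-LAP promoter that responds to doxycycline, and tumours were collected at the humane endpoint. Control livers were normal tissue of matched mice. The sources used here do not give age, strain, sex, or the controls' transgene and doxycycline status. They also do not say whether samples came from separate animals, so each p-value reflects the spread between samples, which may be technical.

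Tryptophan that is not built into protein is mostly broken down in hepatocytes along the kynurenine pathway. Its carbon ends either in acetyl-CoA by the glutarate branch or in quinolinate, from which liver can make NAD de novo. NAD, the electron carrier and substrate of sirtuins and PARPs, is also rebuilt from nicotinamide by a salvage route, and nicotinamide that is not salvaged can be methylated and excreted.

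In the tumours, the genes of the steps from tryptophan to quinolinate were lower, and Qprt and Nadsyn1, which act between quinolinate and NAD, did not pass the test. Of the 10 genes, 6 were lower at an adjusted p of 0.05 in limma and none were higher, where 12.7% of all genes tested were lower and 16.2% higher. At an unadjusted p of 0.05, 7 were lower and 1 higher. With array weights, 7 were lower and 1 higher after adjustment. The 6 lower genes all fell by at least 2-fold. Over all genes, 4.68% were both lower at that adjusted p and lower by at least 2-fold. The median log2 change of the 10 genes was -1.22, against -0.04 over all genes. For the same 6 genes every tumour lay below every control, an arrangement seen for 13.9% of all genes. Array values are log2 values as deposited, all changes are tumours minus controls, and levels of different probe sets are not compared. A group mean at or below 6.20, the 95th percentile of 1027 olfactory receptor genes on these arrays, was taken as not shown to be above background.

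Upstream sequences are shown for the genes with the steepest falls, Tdo2 and Kmo, and for Nampt, which had the highest log2 change of the 10. Each is the 250 bases before the annotated start in RefSeq, build GRCm38.p6, written 5′ to 3′ on the gene's strand, with CG dinucleotides in capitals.
Tdo2, chr3:81975729-81975978, minus strand: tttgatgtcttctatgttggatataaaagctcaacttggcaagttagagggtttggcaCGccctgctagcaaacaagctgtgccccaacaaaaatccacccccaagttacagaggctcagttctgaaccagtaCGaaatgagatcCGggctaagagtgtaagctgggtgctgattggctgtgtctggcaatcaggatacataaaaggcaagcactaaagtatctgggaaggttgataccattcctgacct
Kmo, chr1:175631943-175632192, plus strand: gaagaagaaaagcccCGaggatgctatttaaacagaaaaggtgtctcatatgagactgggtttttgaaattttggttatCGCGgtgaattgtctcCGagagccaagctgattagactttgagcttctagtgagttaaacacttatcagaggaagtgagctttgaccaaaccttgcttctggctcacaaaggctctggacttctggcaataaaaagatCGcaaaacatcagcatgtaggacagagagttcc
Nampt, chr12:32820085-32820334, plus strand: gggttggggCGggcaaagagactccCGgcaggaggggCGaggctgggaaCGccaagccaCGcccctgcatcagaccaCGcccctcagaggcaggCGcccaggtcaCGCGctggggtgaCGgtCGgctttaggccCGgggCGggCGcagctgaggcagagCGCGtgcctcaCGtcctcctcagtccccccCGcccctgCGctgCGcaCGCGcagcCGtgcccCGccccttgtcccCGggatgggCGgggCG
The windows of Tdo2 and Kmo hold 3 and 5 CG dinucleotides and that of Nampt holds 27. Over the same 250 bases of all 32851 entries in the table the median was 6, with quartiles of 2 and 16. Among the other genes that fell, the window of Acmsd holds 1, that of Haao 6 and that of Afmid 15. Among the other genes that did not pass the test, Qprt has 6 and Nadsyn1 has 23. The table matched 8 of the 10 genes, so these counts are a description with no test.

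Tdo2, tryptophan dioxygenase, opens the ring of tryptophan in the first and rate-limiting step of the pathway in liver. It read 12.26, 12.39, 11.71 and 12.26 in control livers 1 to 4, and 4.80, 5.51, 5.96 and 6.08 in tumours 1 to 4. The groups were far apart, and all 4 tumours lay under the low-signal bound. The log2 change was -6.56 (SE 0.26, adjusted p = 7.1e-08 in limma). Since the tumour mean is not shown to be above background, Tdo2 was at least 62.1-fold lower in tumours.

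Afmid, the formamidase that releases kynurenine from N-formylkynurenine, read 7.77, 9.10, 9.02 and 8.73 in controls and 7.03, 6.76, 7.02 and 6.85 in tumours. Tumours lay close together and below all controls, and control liver 1 was the lowest of its group. The change was -1.74 (SE 0.25, adjusted p = 0.000400), or 3.34-fold, and -2.04 without control liver 1.

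Kmo, kynurenine monooxygenase of the outer mitochondrial membrane, commits kynurenine to the branch towards quinolinate. Its values were 11.80, 11.47, 11.27 and 11.40 in controls and 7.37, 8.48, 7.71 and 7.13 in tumours. Tumour 2 was the highest of the tumours and still lay well below the lowest control. Kmo fell 14.1-fold (log2 change -3.82, SE 0.25, adjusted p = 1.8e-06).

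Kynu, kynureninase, cuts hydroxykynurenine to hydroxyanthranilate and alanine. It read 12.24, 12.04, 11.81 and 11.96 in controls, and 10.93, 11.20, 10.72 and 10.64 in tumours. The groups did not overlap, and every tumour stayed far above the low-signal bound. Kynu fell 2.20-fold (log2 change -1.14, SE 0.14, adjusted p = 0.000141).

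Haao, hydroxyanthranilate dioxygenase, makes the unstable semialdehyde from which quinolinate forms. It read 9.92, 10.05, 10.15 and 10.77 in controls, and 9.62, 8.71, 8.96 and 8.44 in tumours. Tumour 1 came within 0.30 of the lowest control. Haao fell 2.45-fold (log2 change -1.29, SE 0.25, adjusted p = 0.00299).

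Acmsd, the decarboxylase that diverts this semialdehyde to the glutarate branch and so away from NAD, was lower too. It read 7.96, 8.66, 7.16 and 7.25 in controls, and 6.12, 6.75, 6.34 and 6.61 in tumours. Controls ranged widely, every tumour lay below them, and tumour 1 was under the low-signal bound. The log2 change was -1.30 (SE 0.30, adjusted p = 0.00733), or 2.46-fold.

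**Figure D1:**
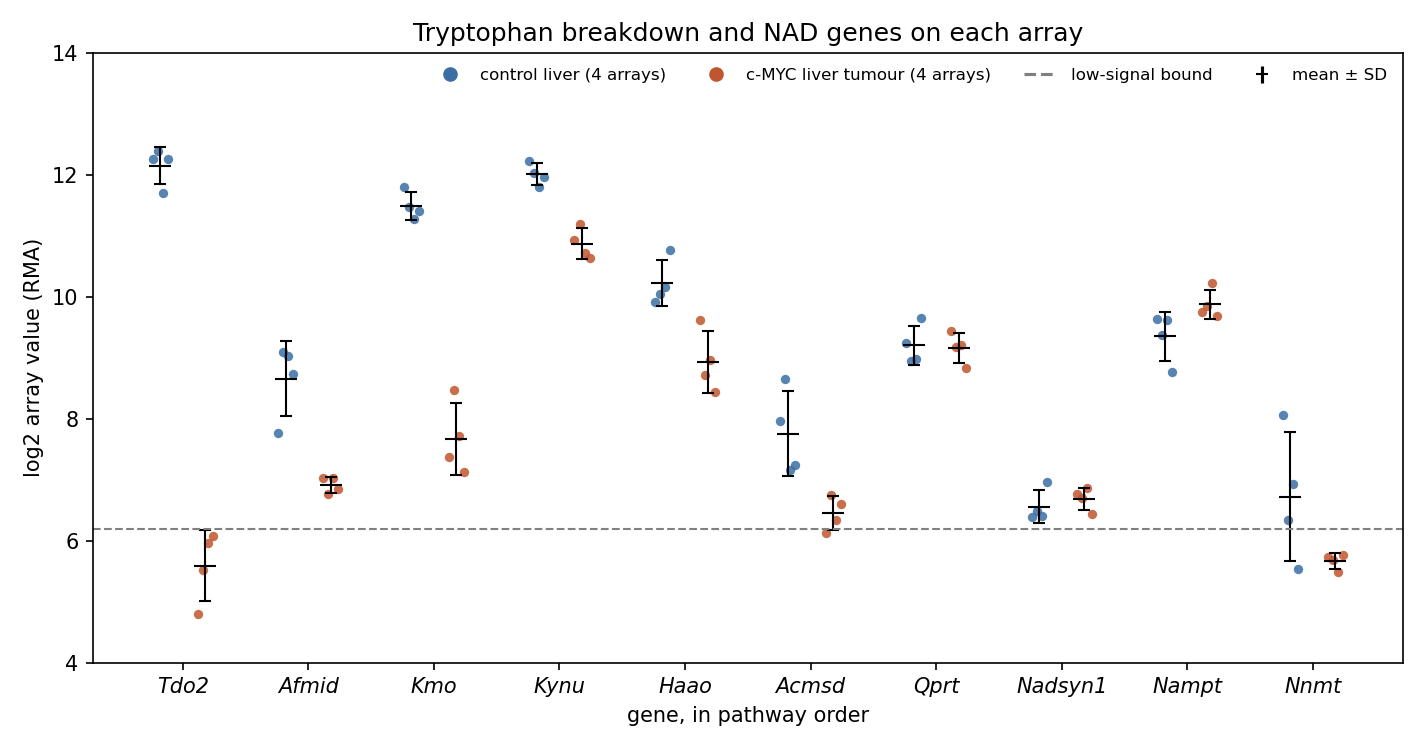
Log2 array values (vertical axis) of the 10 genes in pathway order on each of the 8 arrays, with control livers in blue and tumours in orange. Points are arrays, bars are the mean ± SD of 4 arrays and the dashed line is the low-signal bound of 6.20. Tumours lie below all controls from Tdo2 to Acmsd, overlap them for Qprt, Nadsyn1 and Nnmt, and lie just above them for Nampt.

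Qprt and Nadsyn1, which act between quinolinate and NAD, did not pass the test. Qprt, quinolinate phosphoribosyltransferase, joins quinolinate to ribose phosphate to give nicotinate mononucleotide. It read 9.25, 8.95, 8.98 and 9.65 in controls, and 9.44, 9.17, 9.20 and 8.83 in tumours. The groups overlapped fully, with a log2 change of -0.05 and a 95% interval from -0.43 to 0.34 (adjusted p = 0.890 in limma). Nadsyn1, NAD synthetase, amidates the last intermediate to NAD. It read 6.39, 6.49, 6.40 and 6.96 in controls, and 6.76, 6.70, 6.86 and 6.43 in tumours. Again the groups overlapped, the change was 0.13 (95% interval -0.20 to 0.46, adjusted p = 0.588), and values lay only a little above the low-signal bound. For Qprt the interval leaves out a fall of 2-fold. For Nadsyn1 the interval cannot settle this, since a 2-fold fall from its control mean of 6.56 would end under the low-signal bound.

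Nampt, nicotinamide phosphoribosyltransferase, is the rate-limiting enzyme of NAD salvage. It read 9.63, 9.38, 9.62 and 8.77 in controls, and 9.75, 9.84, 10.23 and 9.68 in tumours. Every tumour lay above every control, as for 16.3% of all genes, but the gap was only 0.05. The log2 change of 0.53 (SE 0.20, 95% interval 0.09 to 0.96) did not pass (adjusted p = 0.0726 in limma), and it was 0.33 without control liver 4, the lowest array. Nampt passed with array weights (adjusted p = 0.0359).

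Nnmt, nicotinamide N-methyltransferase, methylates nicotinamide with S-adenosylmethionine and so removes it from salvage. Its controls spread more than those of any other of the 10 genes, at 8.07, 6.35, 6.93 and 5.54, while the tumours read 5.74, 5.69, 5.48 and 5.77. All 4 tumours and control liver 4 lay under the low-signal bound, and control liver 4 lay among the tumours. The log2 change of -1.06 (SE 0.42, 95% interval -1.98 to -0.13) did not pass (adjusted p = 0.0884 in limma). Leaving out control liver 4 brought it past the threshold (-1.45, adjusted p = 0.00858), whereas leaving out control liver 1 left -0.61 (adjusted p = 0.139). Array weights gave an adjusted p of 0.0424. Control liver 1 was the highest control for Kmo, Kynu, Nampt and Nnmt and the lowest for Afmid, Haao and Nadsyn1. Its mean over 9 acute phase genes was 12.18, the highest of all arrays. The other controls read 8.82 to 9.63 and tumours 6.53 to 7.81. The part of the acute phase level in the spread of the 10 genes was not tested.

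**Figure D2:**
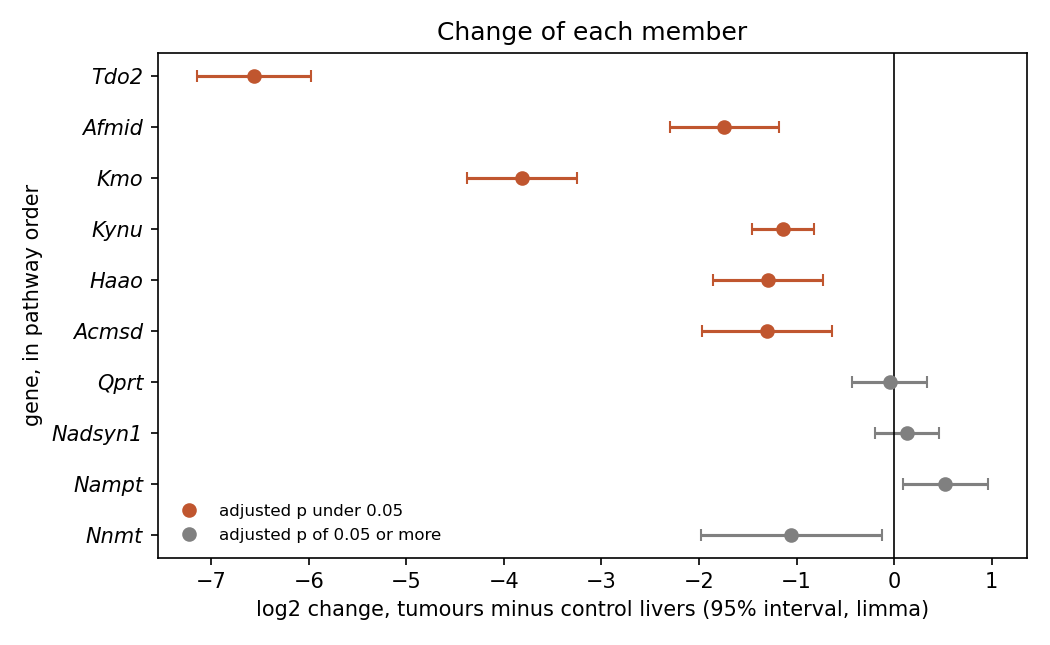
Log2 change of each of the 10 genes, tumours minus controls, with 95% intervals from limma, in pathway order. Orange marks an adjusted p under 0.05. The 6 genes from Tdo2 to Acmsd lie at -1.14 or lower, and the intervals of Qprt and Nadsyn1 span 0.

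Neighbouring steps were set against each other by the difference of 2 genes within each array, compared between groups with an exact two-sided permutation test. The 9 pairs were chosen after the values were seen, and with 4 arrays against 4 the smallest p the test can give is 0.0286. It was reached by 5 pairs, and no pair passed 0.05 after adjustment over all 9. The fall of Kmo exceeded Afmid's by 2.07 and Kynu's by 2.68 on the log2 scale. The change of Haao was 1.25 below that of Qprt. Tdo2 fell more than Afmid, and the change of Nampt was above that of Nnmt, but no size is given for these pairs since Tdo2 and Nnmt lay under the low-signal bound in all 4 tumours. In these 5 pairs the within-array differences of the groups did not overlap (exact permutation p = 0.0286, adjusted p = 0.0514 each). Acmsd against Qprt differed by 1.26, with overlap (exact p = 0.0571, adjusted p = 0.0857). Kynu and Haao differed by 0.15 (exact p = 0.657), Haao and Acmsd by 0.01 (exact p = 0.971), and Qprt and Nadsyn1 by 0.17 (exact p = 0.200).

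Alternative enzymes of the same steps and the side branches were partly lower as well. Of 15 other enzymes that use tryptophan or kynurenine or belong to the glutarate branch, 5 were lower and 1 higher, with a median log2 change of -0.18 (28.9% of all genes passed in either direction, with a median of -0.04). Higher calls numbered 2 without control liver 4 or without tumour 4. Aadat, which transaminates kynurenine to kynurenate, went from 10.44 ± 0.28 to 5.60 ± 0.80 (mean ± SD, n = 4 each), at least 18.9-fold lower in tumours. Ido2, an indoleamine dioxygenase that can also open tryptophan, went from 7.89 ± 0.44 to 6.12 ± 0.12, at least 3.23-fold lower (adjusted p = 5.45e-05 in limma). Its paralog Ido1, the form induced by interferon, was under the low-signal bound in both groups (5.37 ± 0.20 and 5.23 ± 0.19). Aldh8a1, which acts after Acmsd on the glutarate branch, fell by 1.51 on the log2 scale (SE 0.25, adjusted p = 0.000966). Maoa, monoamine oxidase A, which degrades serotonin, was the higher member and rose 4.10-fold (log2 change 2.04, SE 0.11, adjusted p = 3.57e-07).

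Among 13 further genes of NAD and NADP synthesis and recycling, 4 were lower and none higher, with a median of -0.13. The share called was 30.8%, close to the 28.9% of all genes. At an unadjusted p of 0.05, 5 were lower and 2 higher, and 1 passed as higher in limma without control liver 3 or without tumour 2. Naprt, which starts NAD synthesis from nicotinic acid, read 7.72 ± 0.18 in controls and 6.76 ± 0.16 in tumours (log2 change -0.96, SE 0.12, adjusted p = 0.000172). Nudt12, a hydrolase that removes NAD caps and cleaves NADH, fell by 1.22 (SE 0.11, adjusted p = 1.59e-05). The mononucleotide adenylyl transferases are shared by the de novo and salvage routes. Nmnat1, the nuclear form, changed by -0.35 (SE 0.11, adjusted p = 0.0305), a call lost when any 1 of control livers 1, 2 and 4 or tumours 1, 2 and 3 was left out (adjusted p between 0.0550 and 0.0726). Nmnat2 changed by -0.11 (95% interval -0.33 to 0.11) and Nmnat3 by -0.13 (-0.34 to 0.08), and neither passed. Nmrk1, which feeds nicotinamide riboside into NAD, had a log2 change of 0.45 (95% interval 0.02 to 0.89) and did not pass (adjusted p = 0.120 in limma). Every tumour lay above every control, by a gap of 0.0057, an arrangement that 16.3% of all genes show.

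Enzymes that consume NAD went both ways. Of 19 measured, 4 were higher and 6 lower, with a median of -0.06 (16.2% of all genes were higher and 12.7% lower). Parp1 and Parp2, the poly(ADP-ribose) polymerases of DNA break repair, rose 2.53-fold and 2.54-fold (log2 SE 0.13 and 0.15, adjusted p = 2.71e-05 and 7.5e-05 in limma). Parp9 and Parp12, PARP family members induced by interferon, fell by 1.32 (SE 0.18) and 1.28 (SE 0.19). Sirt1, the nuclear deacetylase, had a log2 change of 0.37 (95% interval 0.06 to 0.69) and did not pass (adjusted p = 0.0776), but passed without control liver 1 (0.51, adjusted p = 0.00761).

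**Figure D3:**
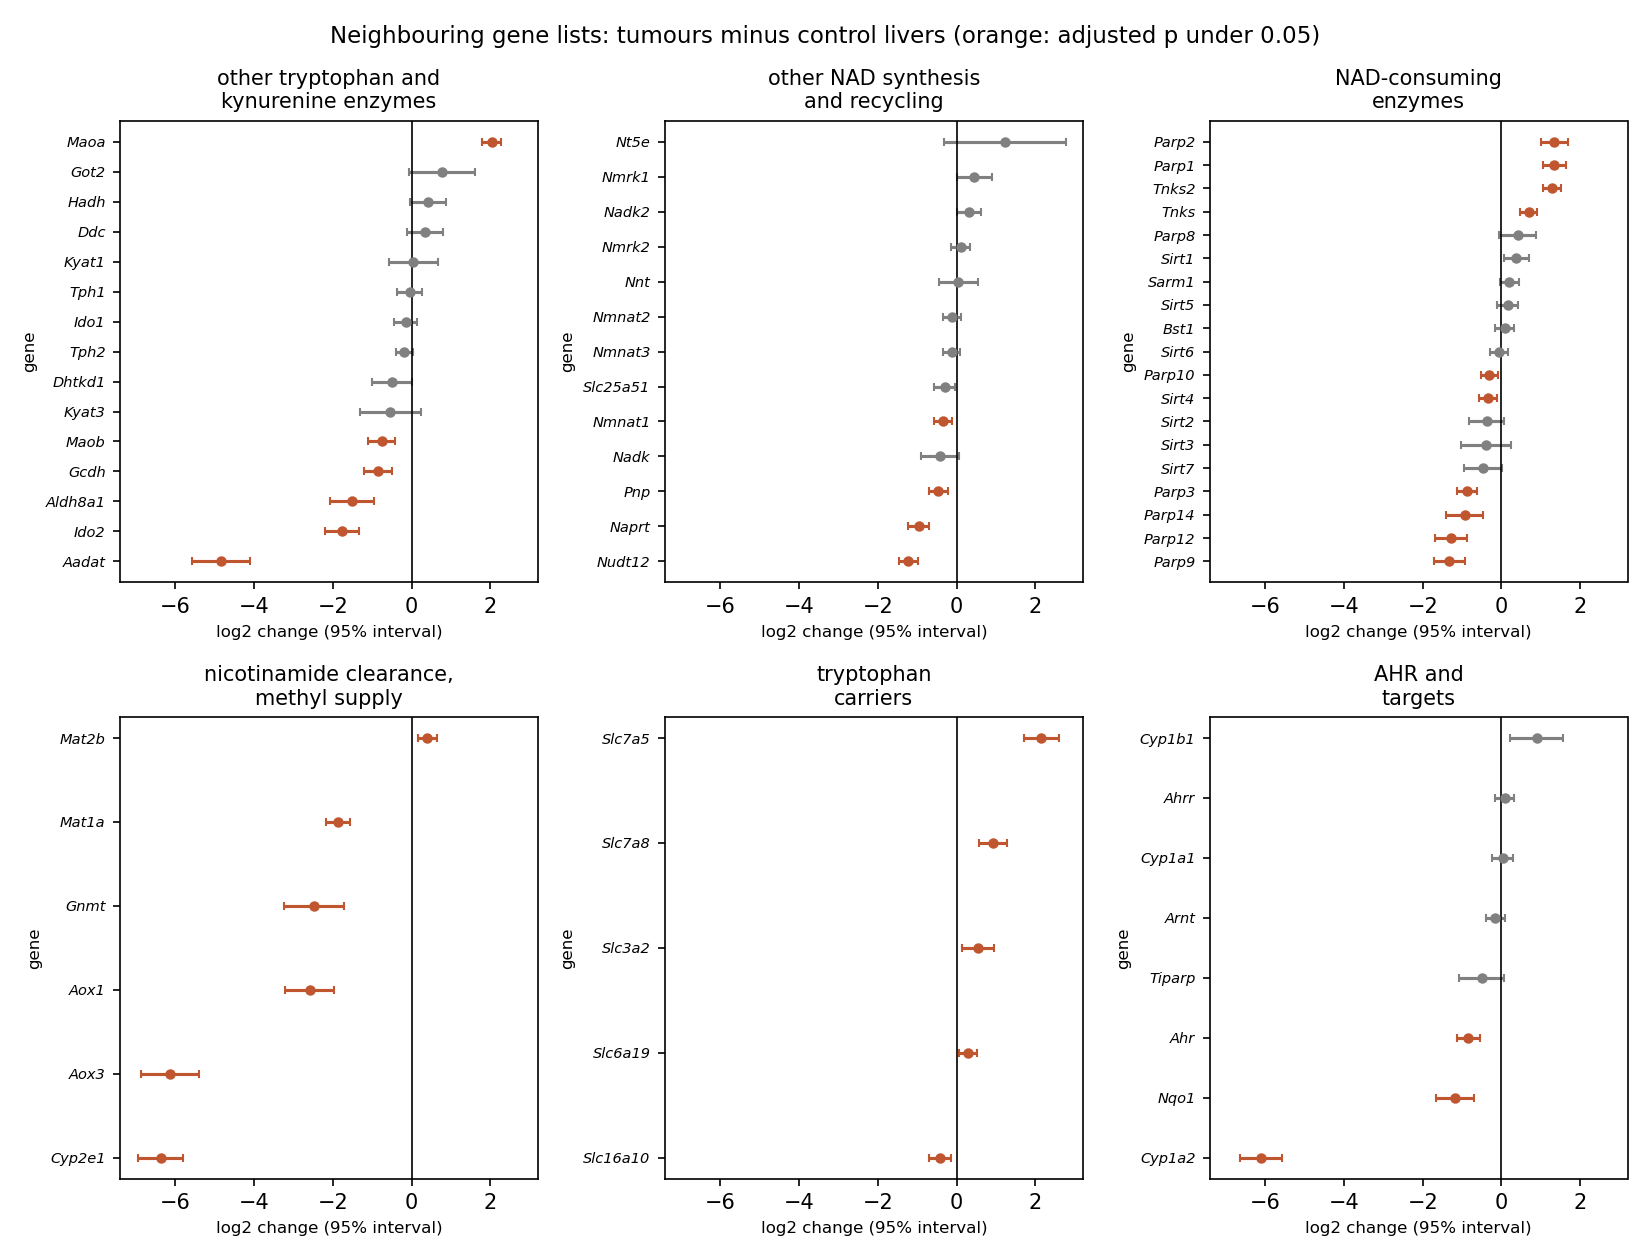
Log2 changes with 95% intervals from limma (horizontal axes) for the measured genes of 6 neighbouring lists, tumours minus controls, sorted within each list. Orange marks an adjusted p under 0.05. Aadat, Cyp2e1, Aox3 and Cyp1a2 lie farthest to the left, and Slc7a5 and Maoa farthest to the right.

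All 6 measured genes of nicotinamide clearance and methyl donor supply passed, 5 lower and 1 higher, with a median of -2.53. Of all genes, 28.9% passed in either direction. Aox3, an aldehyde oxidase of the family that oxidises methylnicotinamide to pyridones, went from 11.56 ± 0.76 to 5.43 ± 0.33 (mean ± SD, n = 4 each), at least 41.3-fold lower. Cyp2e1, which can oxidise nicotinamide, changed by -6.38 (SE 0.26). Its tumour mean of 6.28 was only just above the low-signal bound, and 2 of the 4 tumours lay under that bound. Mat2b, the regulatory subunit of S-adenosylmethionine synthetase outside normal liver, rose by 0.40 (SE 0.11, adjusted p = 0.0195), which did not pass when control liver 2, control liver 4, tumour 1 or tumour 3 was left out (adjusted p of 0.0521 to 0.0546).

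Carriers of tryptophan were mostly higher. Of 5 measured, 4 were higher and 1 lower, with a median of 0.55 (16.2% of all genes were higher and 12.7% lower). For 1 of the 4 both group means lay under the low-signal bound. Only 2 stayed past the threshold as higher when control liver 1, 2 or 3 or tumour 1, 2 or 3 was left out, and also after each array's median was subtracted. Slc7a5, the LAT1 exchanger of large neutral amino acids, read 6.37 ± 0.29 in controls and 8.52 ± 0.38 in tumours and rose 4.44-fold (log2 SE 0.20, adjusted p = 1.8e-05 in limma). Slc7a8, its LAT2 relative, went from 6.17 ± 0.15, under the low-signal bound, to 7.09 ± 0.35, at least 1.86-fold higher. Slc16a10, an aromatic amino acid transporter, was the lower carrier (-0.43, SE 0.13, adjusted p = 0.0269), which did not pass when control liver 3, control liver 4, tumour 2 or tumour 4 was left out (adjusted p of 0.0556 to 0.0762).

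Kynurenine and other tryptophan products can activate the aryl hydrocarbon receptor. Of 8 measured genes of this receptor and its textbook targets 3 were lower and none higher, with a median of -0.33. The share called was 37.5%, against 28.9% of all genes. Ahr, the receptor itself, was among the lower genes (log2 change -0.84, SE 0.13, adjusted p = 0.000771 in limma). Cyp1b1 was the 1 gene higher at an unadjusted p of 0.05 (adjusted p = 0.0518 in limma). It passed without tumour 1, with quantile normalisation, with array weights, with a replicate block and after dim genes were left out (adjusted p of 0.00542 to 0.0441). The control mean of Cyp1b1, 6.08, lay under the low-signal bound. Cyp1a2, a cytochrome P450 that hepatocytes express constitutively, was at least 36.8-fold lower in tumours. Nqo1 also passed as lower (adjusted p = 0.00171), but both of its group means lay under the low-signal bound. Cyp1a1, the most inducible target, was under that bound in both groups (5.15 ± 0.13 and 5.18 ± 0.20).

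Enzymes of phenylalanine, tyrosine and histidine breakdown, which hepatocytes also carry, were lower for 8 of 12 and higher for none, adjusted or unadjusted in limma, with a median of -1.28. Over all genes, 12.7% were lower after adjustment. In fits that left out 1 array, 7 or 8 of the 12 were lower, and 1 was higher without control liver 4. Whether that list differs from the 10 genes was not tested. Tat, the tyrosine aminotransferase, and Hal, the histidine ammonia-lyase, changed by -5.71 (SE 0.18) and -2.23 (SE 0.21). Across the 8 arrays the genes with the pattern most like that of Tdo2 were Sult2a8 (Pearson r = 0.998), Tat (r = 0.996) and Ugt2b1 (r = 0.996). Those most like Nampt were Fuca2 (r = 0.976), 1600029O15Rik (r = 0.967) and Cdkn2c (r = 0.966), none of which passed the test between groups. The arrays form 2 groups, so the coefficients for Tdo2 mainly describe the difference between them.

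In bulk tissue, fewer cells of a type and less RNA per cell cannot be told apart. For the marker counts below, the shares over all genes were 12.7% lower and 16.2% higher. All 7 measured hepatocyte markers were lower in tumours, with a median of -0.54 and a mean log2 value per array of 11.76 to 12.05 in controls and 10.66 to 11.12 in tumours, and 4 were lower without tumour 4. Albumin and transthyretin, 2 of these markers, changed by -0.52 (SE 0.12) and -0.33 (SE 0.09), with control means of 13.00 and 13.04 on arrays whose highest value was 13.56. The widest falls among these markers were those of Asgr1, a subunit of the asialoglycoprotein receptor (-2.78, SE 0.26, adjusted p = 1.89e-05 in limma), and Apob, the apolipoprotein of secreted lipoproteins (-1.03, SE 0.10). The log2 change of Asgr1 was thus below those of Afmid, Kynu, Haao and Acmsd. All the other hepatocyte markers, from Apob at -1.03 to transthyretin at -0.33, fell less than each of these enzymes. Kmo and Kynu are also expressed in macrophages. Of 12 Kupffer cell and macrophage markers 3 were higher and 2 lower, with a median of -0.01. That median covers large changes both ways, with Lyz2 at 2.61 and Cd68 at 2.11 against Vsig4 at -2.38 and Clec4f at -1.75. The log2 of the 12 markers' summed unlogged values ranged from 11.43 to 12.39 in controls and from 11.76 to 12.76 in tumours. The brightest markers weigh most in such a sum, so it is not a measure of cell number. Cd14 and Ccr2 were under the low-signal bound in both groups. Fibroblasts can express Nnmt. Of 10 stellate cell and fibroblast markers 1 was higher and 4 lower, with a median of -0.08. The log2 of their summed unlogged values was 11.41 to 11.89 in controls and 10.37 to 11.45 in tumours. The higher call there was lost without control liver 1 or 3, without any 1 tumour and with quantile normalisation, and 2 were lower without tumour 4. Of 8 endothelial markers 5 were lower and none higher, adjusted or unadjusted (median -0.93). None of 9 lymphocyte markers passed in limma, adjusted or unadjusted, although 1 was higher without control liver 3, and 6 of the 9 lay under the low-signal bound in both groups. Of 5 bile duct markers 1 was higher and 1 lower, and the lower call held only without tumour 4 among the 8 fits that left out 1 array. The higher marker, Epcam, read 5.28 in controls and 6.16 in tumours, and 3 of the 5 lay under the low-signal bound in both groups, Epcam among them. The part of these cell types in the 10 genes' changes was not tested.

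Control liver 3 stood apart in sex-linked genes, with Xist at 11.89, against 5.78 to 6.74 in the other controls and 4.86 to 7.12 in tumours, and a mean of 3 Y-linked genes of 4.24, against 8.04 to 8.50 in the other 7 arrays. Without it the same 6 enzymes were lower and none higher, with Tdo2 at -6.71 and Acmsd at -1.50. Correlations across genes lay between 0.970 and 0.982 among controls and between 0.979 and 0.989 among tumours.

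Short sequence motifs were searched on both strands of the 300-base windows, from 250 bases before to 50 after the start, of the 8 matched genes. None held the E-box CACGTG, which 7.15% of all windows hold, the C/EBP palindrome TTGCGCAA (0.183%), the HNF1 palindrome of GTTAAT and ATTAAC with 1 base between (0.00913%), the glucocorticoid response element of AGAACA and TGTTCT with 3 bases between (0.00913%) or the nuclear receptor repeat of AGGTCA and AGGTCA with 1 base between (0.0396%). TATAAA, which 13.6% of windows hold, occurred once, in the Tdo2 window at positions -229 to -224 from the start. The motifs do not overlap one another, and the absence of a match says only that these letters are not in the window.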

How the data were processed

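Expression was measured in 4 control livers and 4 tumours, 1 array each. The authors deposited 1 log2 value per probe set and array, made with RMA in R 3.0.2 per the submitters' processing notes; RMA corrects background, normalises between arrays and summarises probes. The sources used here do not state its settings. Of 34760 probe sets, 21640 had 1 gene symbol in the platform annotation, and 21553 of these were updated by gene identifier to RefSeq names. The brightest probe set was kept for each of 19937 genes. Deposited values were compared with limma 3.58.1 (lmFit, eBayes; R 4.3.3), group as the only term, with Benjamini-Hochberg adjustment over all genes at 0.05. Errors are SD of 4 arrays or SE from limma, and the number of arrays limits the precision. Tables used Python 3.11.15 and pandas 2.3.3, and plots matplotlib 3.10.9. The fit was tested on simulated data.

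The members and gene lists were chosen with earlier results of these data known. Named genes are the 10 members and up to 2 rises and 2 falls of each other list. Listed alternatives to a member's step and the 3 genes most like Tdo2 and Nampt were also named. Albumin, transthyretin, Apoa1, Cps1, Hnf4a, Cd14, Ccr2, Ahr, Cyp1a1, Cyp1b1 and sex-linked genes were added after their values were seen. Of the lists, Parp4, Cd38, Mat2a and Ahcy, among others, had no probe set annotated to them alone and were not analysed here. Vitamin B6 genes were also listed, and neither of the 2 measured passed (1 higher at an unadjusted p of 0.05 in limma). Alternatives were quantile normalisation, array median subtraction, a filter on dim genes (the lowest 33.3% by mean), array weights, eBayes with a trend and robust settings, a replicate block, averaging over probe sets per gene, omission of each array in turn, and limma's treat at 1.5-fold. A low-signal bound stood in for detection calls, which the table does not hold.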

Additional observations from a re-analysis of the deposited data

How the results depend on the processing

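Of 160 values of the 10 genes under 16 alternatives, 154 kept their direction and side of the threshold or, where no call was made, stayed uncalled; Qprt, never called, ranged from -0.14 to 0.10. Tdo2, Afmid, Kmo and Kynu were lower in all 16 alternatives. Against a 1.5-fold change in place of 0, Haao (-1.29, adjusted p = 0.0991 in limma) and Acmsd (-1.30, 0.173) no longer passed, 4 of the 10 genes were lower, and the counts over all genes were 963 higher and 756 lower, against 3225 and 2532; that test asks for a larger change. With array weights Nampt (0.60) and Nnmt (-1.15) passed, so that 1 of the 10 genes was higher and 7 lower. Without 1 array, Nnmt ranged from -1.45 to -0.61. Same-numbered arrays deviated from their group means with correlations between -0.32 and 0.05. Of 4 controls 1, and of 4 tumours 0, correlated best with its own number. With so few arrays these values cannot decide whether same-numbered samples were paired. With the replicate block, 2859 genes were higher and 2148 lower, and Nampt passed (0.53, adjusted p = 0.0340), making 1 of the 10 genes higher. No detection calls were used, so values under the low-signal bound limit the folds of Tdo2 and Nnmt.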
